A study of Mus musculus with 2 samples.

Results

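Bright transcripts that read higher in the more tightly held of 2 vesicle fractions are described here. Murine cytotoxic T lymphocytes (CTL), CD8 cells able to kill their targets, were cultured for 7 days. Their supernatant was concentrated with a 750 kDa cutoff and loaded on DEAE, a positively charged resin. Vesicles were eluted with 0.3 M NaCl or with 0.5 M NaCl, and total RNA of each eluate was amplified, labelled with Cy5 and put on 1 array. Both groups share cell type, culture and concentration steps and differ in the salt of elution. For mouse strain, stimulus of the cells and number of preparations, nothing is stated in the labels.

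The members are 136 probes of 136 genes, out of 23473 probes on the table. They were chosen by their deposited intensities: 1 gene symbol, 100 to 3999 on both arrays, and a 0.5 M over 0.3 M ratio of at least 1.63. Ribosomal protein, respiratory chain, proteasome, mitochondrial import, granzyme, H2 and histone genes were left out by the rule. Of 2234 probes that could have qualified, 6.09% are members. The same ratio chose them, so this share and all member values are a description and nothing is read from them. With 1 array per fraction, a single probe is noisy, no test can be made and no error between replicates exists.

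Extracellular vesicles are membrane-bound particles that cells shed or release from endosomes, and they carry messenger RNA of the parent cell. Anion exchange sorts them by negative surface charge, with more salt needed to release the more negative ones. In activated CTL, abundant messages include those for secreted chemokines, costimulatory receptors and the actin, lysosome and secretory machinery used in killing.

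Intensities below are as deposited, on a linear scale. The differences given are log2 values, 0.5 M minus 0.3 M, after subtracting each array's median over probes measured on both. Those medians were 32 at 0.3 M and 26 at 0.5 M, a shift of -0.30, so the threshold ratio of 1.63 equals about 2-fold after centring. Precision is limited by having 1 array per fraction. A value was present for 18969 probes at 0.3 M and 16732 at 0.5 M. Labelled identity was checked with T cell markers. Cd8a, the coreceptor of CTL, read 3677 and 2463, Cd3d of the T cell receptor complex 849 and 990 and Gzmb, a granzyme, 2493 and 2838. Nkg7 read 405 and 548 and the cytokine gene Ifng 468 and 238 (difference -0.68). Cd3e was dim at 12 and 14, as was the perforin gene Prf1 at 33 and 26. The globin gene Hba-a2, a red cell marker, read 12001 and 5681, brighter than any CTL marker. Of the 9 CTL marker probes measured on both arrays, 0 are members. Gzmb is left out by the rule and Cd3e and Prf1 lay below the band, so these could not be. Over all probes that could have qualified, the share of members was 6.09%, so nothing is read from this 0.

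Upstream sequences are shown for the annexin, S100 and galectin members, since this was the fixed list of at least 5 probes with the largest share of members. They are the 150 bases before the RefSeq start in GRCm38.p6, written 5′ to 3′ in the direction of the gene. Capitals mark GGGCGG (bound by Sp1-type factors) and TATAAA (bound by the TBP subunit of TFIID), on either strand. S100a11 lies at chr3:93520346-93520495 (+), S100a6 at chr3:90612744-90612893 (+), S100a1 at chr3:90514331-90514480 (-), Lgals3 at chr14:47373710-47373859 (+) and Anxa2 at chr9:69453533-69453682 (+).
S100a11: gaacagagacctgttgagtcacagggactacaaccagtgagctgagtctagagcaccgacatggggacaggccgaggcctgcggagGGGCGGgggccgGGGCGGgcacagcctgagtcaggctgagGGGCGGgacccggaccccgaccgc
S100a6: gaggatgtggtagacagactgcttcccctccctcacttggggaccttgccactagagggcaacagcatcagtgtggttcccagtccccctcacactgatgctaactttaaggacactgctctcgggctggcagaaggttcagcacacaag
S100a1: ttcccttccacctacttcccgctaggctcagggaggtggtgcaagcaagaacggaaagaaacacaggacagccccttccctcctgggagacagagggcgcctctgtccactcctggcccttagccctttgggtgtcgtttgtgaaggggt
Lgals3: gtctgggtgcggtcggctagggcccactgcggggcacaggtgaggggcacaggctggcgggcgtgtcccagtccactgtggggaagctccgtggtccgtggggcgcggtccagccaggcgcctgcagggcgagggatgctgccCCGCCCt
Anxa2: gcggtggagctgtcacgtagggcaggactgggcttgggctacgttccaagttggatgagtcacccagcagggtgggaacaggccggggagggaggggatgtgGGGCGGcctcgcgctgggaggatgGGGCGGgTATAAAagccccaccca

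Members lay across the whole intensity band. Their median intensity was 281 at 0.3 M, from 100 to 2167, and 533 at 0.5 M, from 167 to 3848. Their ratios ran from 1.63 to 3.22 with a median of 1.81, and 3 in 4 members were at or under 1.96. Thus most lay close to the threshold, in a cloud of 2098 other probes whose ratios ran from 0.28 to 1.63. Just above the threshold were Tagln2 (1528 and 2508), Plekha4 (131 and 215), Gapdh-ps15 (771 and 1265) and Syce2 (489 and 799). Just below it were Kdelr1 (564 and 919), Pgls (599 and 976), Ccr4 (2007 and 3270) and Rpp21 (234 and 381). At the lower bound of the band lay Spcs2 (100 at 0.3 M), Mcrip1 (101) and Atp6v0e (102), and at the upper bound Serf2 (3848 at 0.5 M), Ap4e1 (3817) and Anxa2 (3761). A further 30 probes reached the ratio with a 0.5 M intensity above the band and 516 with a 0.3 M intensity below it. In the other direction, 42 of the 2234 probes (1.88%) were at least 2-fold lower at 0.5 M after centring, a count that scaling changes, as given with the scalings.

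**Figure D1:**
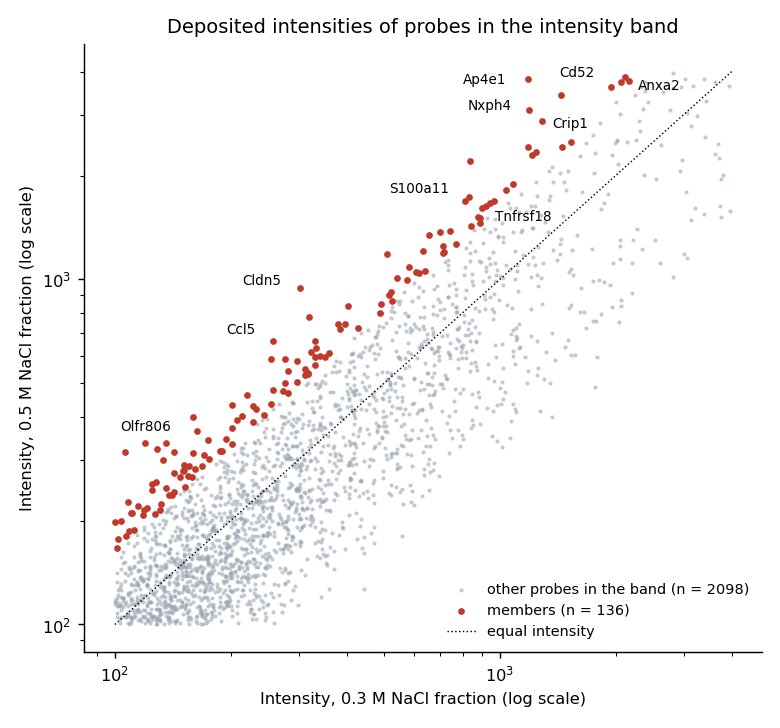
Deposited intensity at 0.3 M (x, log scale) against 0.5 M (y, log scale) for the 2234 probes in the band, members in red and other probes in grey. The 136 members form the upper edge of 1 continuous cloud, with Ap4e1, Cldn5, Olfr806 and Ccl5 among those farthest from the line of equal intensity.

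Leukocyte surface and secreted proteins gave 11 members. Roles were assigned after the members were known. Ccl5, a chemokine secreted by activated CTL, had the largest ratio of these, with 258 at 0.3 M and 661 at 0.5 M, a centred difference of 1.66. Tnfrsf18, the costimulatory receptor GITR, read 923 and 1630 (difference 1.12). Cd52, a small glycoprotein anchored on lymphocytes, was the brightest of the group at 2058 and 3727 (1.16). The tetraspanin Cd37 read 150 and 278, and Bsg, a glycoprotein that escorts lactate transporters, 161 and 282. Lsp1, an actin-binding protein of leukocytes, read 108 and 227. Laptm5, a lysosomal membrane protein of blood cells, read 188 and 318. The oxidase subunit Ncf4 read 201 and 370, and Ifitm2, an interferon-induced membrane protein, 896 and 1613. Emp3 (380 and 742) and Fxyd5, a regulator of the sodium pump (174 and 343), completed the group. Each of these probes read higher at 0.5 M, as the rule required.

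Related genes differed in whether they reached the ratio. Of 4 chemokine and chemokine receptor probes in the band, Ccl5 is the member and Ccr4 lay just under the threshold. Xcl1 read 305 and 281 (difference 0.18) and Cxcl16 131 and 102 (-0.06). Outside the band, the chemokines Ccl3 (59 and 59) and Ccl4 (50 and 57) were dim. Of 3 probes of TNF superfamily genes in the band, Tnfrsf18 is the member. Tnfrsf4, the receptor OX40, read 273 and 400 (difference 0.85) and Tnfrsf1b 316 and 217 (-0.24). The list of CD antigens and tetraspanins placed 3 of 20 probes among the members and had a median difference of 0.16, against 0.18 over all 2234 probes. The T cell receptor list placed 0 of 11 there, with a median of 0.52. Its nearest were Cd3g, at 105 and 162 (0.93), and Cd8b1, at 333 and 496 (0.87). That list's median was 0.24 with a trend on level removed by loess, against 0.01 over all 2234. The share of members over all 2234 probes was 6.09%, so nothing is read from the counts in lists this small.

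Annexin, S100, galectin and other small binding proteins gave 8 members. Of 11 annexin, S100 and galectin probes in the band, 5 are members (45.5%, against 6.09% of the band). The list's median difference was 0.77, against 0.18 over all 2234. The list was written with earlier results of these data known. S100a11 read 829 and 1732, a centred difference of 1.36. S100a6 read 332 and 634 (1.23), and S100a1 118 and 208 (1.12). All 3 are S100 proteins, which bind calcium and then dock on partners. Anxa2, an annexin that binds membrane phospholipid, read 2167 and 3761 (1.09), and Lgals3, a galectin that binds galactose-bearing sugars, 744 and 1380 (1.19). S100a10, the usual partner of Anxa2, read 2576 and 5199 (1.31) and S100a4 2404 and 4507 (1.21), both too bright at 0.5 M for the band. The family did not move as 1: S100a13 read 274 and 380 (0.77), S100b 200 and 141 (-0.20), Anxa7 179 and 108 (-0.43) and Lgals4 1066 and 389 (-1.15). Other small binding proteins among the members were Crip1, a LIM domain protein (1283 and 2882, 1.47), Sri, the calcium-binding sorcin (274 and 475), and Sh3bgrl3, a thioredoxin-like protein (699 and 1375).

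In the printed stretches, S100a11 held GGGCGG at -64, -52 and -24, counted from -1 at the last base before the start. Anxa2 held it at -48 and -24, with TATAAA at -17, and Lgals3 held its complement at -7. S100a6 and S100a1 held none of the 5 motifs searched there. GGGCGG was thus in 3 of the 5 printed stretches and no motif was in all 5. A match of letters is not a bound site.

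Cytoskeletal genes gave 9 members. Filip1l had the largest ratio of them (106 and 316, difference 1.88), followed by Gsn, the actin-severing gelsolin (129 and 322, 1.62). Tln1, which links integrins to actin, read 331 and 665, and the dynein light chain gene Dynlt1b 632 and 1207. Dynlt1b has near-identical copies that could share its probe. The actin-binding Cotl1 read 716 and 1201 and Tagln2 1528 and 2508. Regulators of small G proteins in this group were Chn2 (713 and 1247), Arap1 (148 and 268) and Cyth2 (125 and 245). In the fixed list of actin and tubulin genes, 2 of 37 probes in the band are members (5.41%, against 6.09% of the band). The list's median difference was 0.25. Pfn1, the actin monomer binder profilin, read 2764 and 3088 (0.46) and Coro1a 1746 and 2614 (0.88). Others on the list read lower, with the Arp2/3 genes Arpc1a at 523 and 306 (-0.47) and Arpc5 at 1547 and 1031 (-0.29), the tropomyosin Tpm4 at 541 and 291 (-0.60) and Myl7 at 290 and 126 (-0.90).

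Endosomal and lysosomal genes gave 11 members. Atp6v1g1, a subunit of the pump that acidifies lysosomes, read 276 and 586 (difference 1.39), and Atp6v0e, another subunit, 102 and 177 (1.09). Rnasek, which associates with this pump, read 404 and 837, and Dmxl2, which helps assemble it, 713 and 1195. Bloc1s1, of a complex that sorts cargo to lysosome-related organelles, read 201 and 432 (1.40). Lamtor2, of the lysosomal platform for nutrient signalling, read 142 and 242. Glmp (109 and 187), the ribonuclease gene Rnaset2b (618 and 1044), the cathepsin inhibitor Cstb (281 and 468) and the ubiquitin ligase Lrsam1 (1083 and 1889) were also members. Ap4e1, a subunit of the AP-4 sorting adaptor, had the largest ratio of all 136 (1186 and 3817, 1.99). The fixed list of endosome, lysosome and vesicle traffic genes held 58 probes in the band, of which 4 are members (6.90%, against 6.09% of the band). Of the 58, 0 were at least 2-fold lower, against 1.88% of the band. The list's median was 0.27. Atp6v1f, a further pump subunit outside the members, read 1674 and 2485 (0.87). Of other subunits in the band, Atp6v1e1 read 272 and 294 (0.41) and Atp6v0d2 323 and 334 (0.35). Below 0 lay Atp6v0b at 424 and 327 (-0.08), Atp6v1b2 at 312 and 240 (-0.08) and Atp6v1c1 at 276 and 144 (-0.64). The subunits of this pump thus did not share a direction.

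The early secretory pathway gave 8 members. Sec61g, of the channel through which proteins enter the endoplasmic reticulum, read 229 and 429 (difference 1.21), and Spcs2, of the signal peptidase, 100 and 198 (1.29). The coatomer subunit Cope read 298 and 580 (1.26), and Use1, a SNARE of retrograde transport, 580 and 1089 (1.21). Psenen, a subunit of gamma-secretase, read 509 and 1184 (1.52). Tmem147 (640 and 1055), Ccdc47 (110 and 210) and Tecr, an enzyme of fatty acid elongation (318 and 534), were the others. The fixed list of this pathway placed 3 of 27 probes among the members (11.1%, against 6.09% of the band), with a median of 0.39. Genes of like function went both ways. Sec61b read 902 and 1277 (0.80), Ssr4 486 and 732 (0.89) and Dad1 749 and 848 (0.48), whereas Ssr3, of the same complex as Ssr4, read 537 and 250 (-0.80), Dpm3 1066 and 696 (-0.32) and Tmed2 973 and 646 (-0.29).

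Folding and proteolysis gave 8 members. The prefoldin subunits Pfdn6 (323 and 617, difference 1.23) and Pfdn2 (202 and 334, 1.03) feed new chains to the chaperonin CCT. Another prefoldin gene, Pfdn5, read 1823 and 2845 (0.94), whereas the chaperonin genes Cct3 (1532 and 1069, -0.22) and Cct4 (1973 and 1114, -0.53) read lower at 0.5 M. Over the chaperone list, 2 of 28 probes in the band are members (7.14%, against 6.09% of the band). The Hsp90 partner Cdc37 read 190 and 318, and Sem1, a proteasome lid subunit whose symbol the rule does not leave out, 524 and 866. Anapc13, of the anaphase-promoting complex, read 176 and 302, Trim44 107 and 181, the F-box gene Fbxo27 136 and 335 and the dipeptidyl peptidase gene Dpp9 1443 and 3415 (1.54).

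Nuclear and stress genes gave 11 members. Elob, the elongin B subunit, read 1211 and 2292 (difference 1.22), and Polr2j, a subunit of RNA polymerase II, 136 and 249 (1.17). Other polymerase subunits lay below the ratio or below 0, with Polr2l at 943 and 1369 (0.84), Polr2f at 618 and 718 (0.52) and Polr2g at 417 and 313 (-0.11). Eloa, the elongin A subunit, read 669 and 281 (-0.95), opposite to Elob. Ddit3, the stress factor CHOP, read 214 and 403, Gadd45g, a growth arrest gene, 359 and 610 and Zfp36l2, which promotes decay of AU-rich messages, 208 and 392. The structure-specific nuclease gene Slx1b read 837 and 2205 (1.70), the helicase gene Ruvbl2 228 and 386, the telomere protein gene Acd 298 and 503 and Edf1, a transcriptional coactivator, 888 and 1510. Hcfc1r1 (311 and 530) and the meiotic gene Syce2 (489 and 799) completed the group.

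Mitochondrial and metabolic genes outside the families left out gave 10 members. Higd1a, a small inner membrane protein, read 1940 and 3599 (difference 1.19), and Tmem160 1239 and 2342 (1.22). Aldoc, an aldolase of glycolysis, read 491 and 851 (1.09). Bola1, of iron-sulphur cluster upkeep, read 104 and 199 and Pck2, the mitochondrial phosphoenolpyruvate carboxykinase, 127 and 209. Hsd17b10 read 159 and 268, Hax1 607 and 1050, Naxe, which repairs damaged NADH, 330 and 566 and the methionine sulphoxide reductase Msrb1 255 and 434. Pafah1b3 read 138 and 237. The glycolysis list had 1 member among 12 probes in the band, and all 12 lay above 0 after centring with a median of 0.63. The list of mitochondrial proteins had 2 of 39, with 35 above 0 and a median of 0.45. Over all 2234 probes, 62.8% lay above 0 after centring, and the lists' shares of members, 8.33% and 5.13%, were near the 6.09% of the band.

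**Figure D2:**
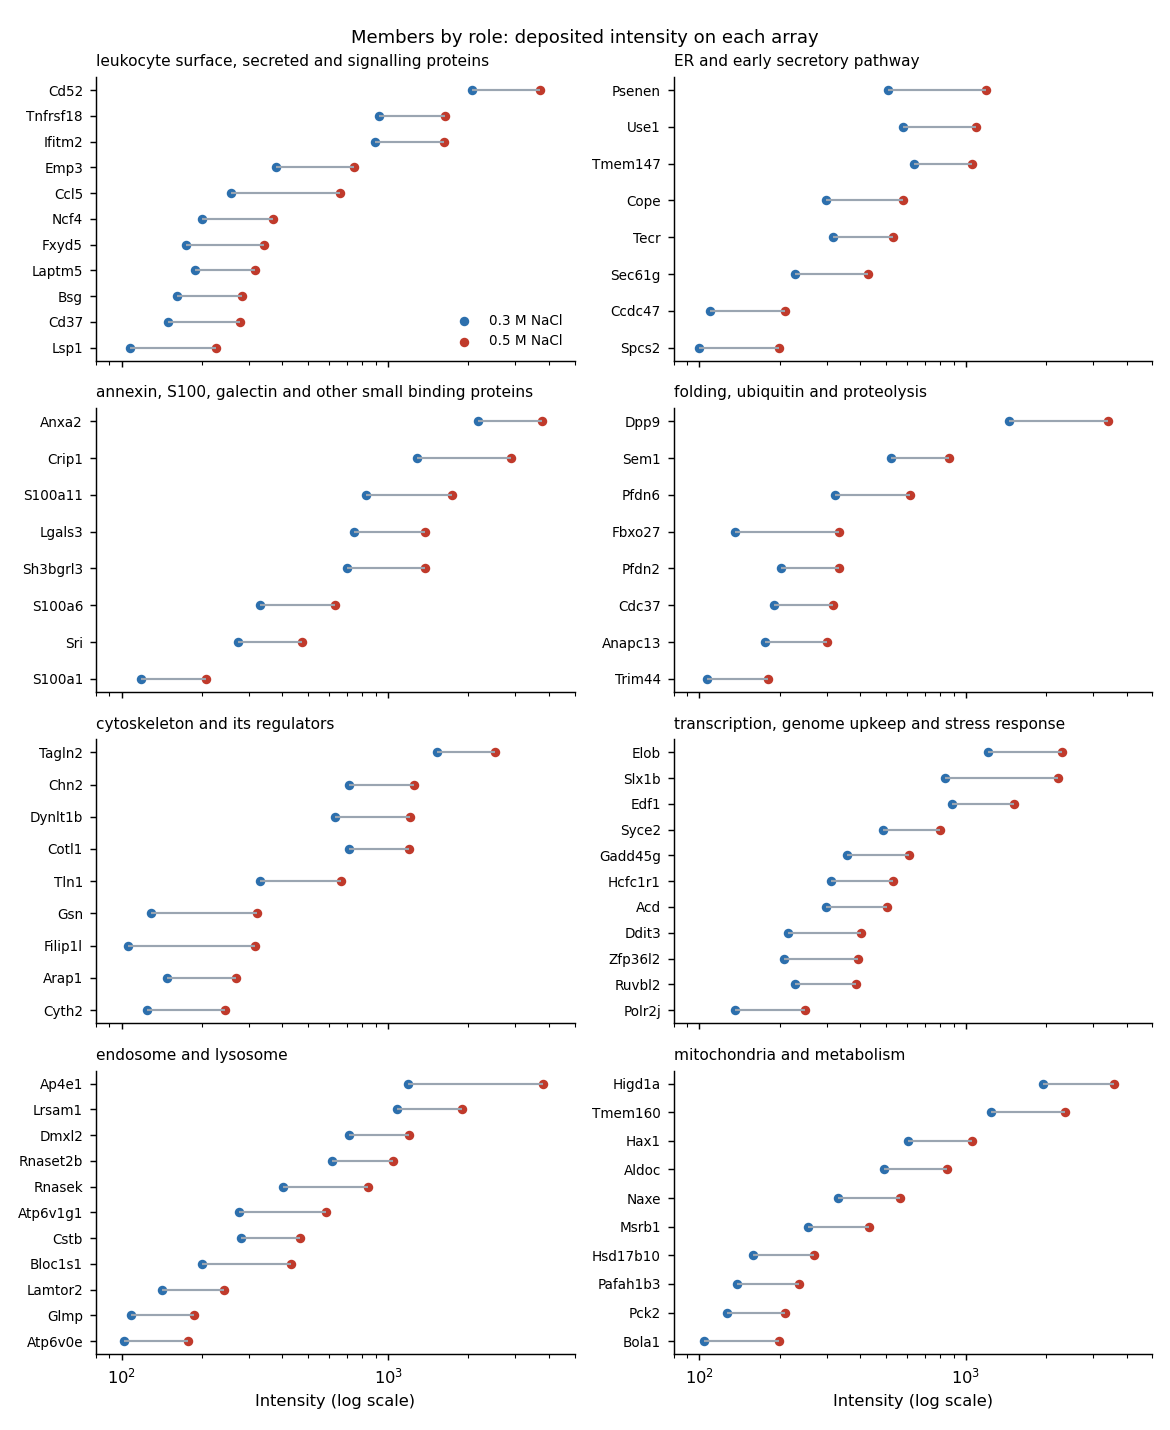
Deposited intensity (x, log scale) of members in 8 roles at 0.3 M (blue) and 0.5 M (red), 1 line for each gene and 1 array for each point. The gaps differ in length within roles, above a minimum that the rule set, and the widest is that of Ap4e1, from 1186 to 3817.

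Genes known mainly from other tissues gave 18 members. Cldn5, a tight junction protein of endothelium, read 303 and 943 (difference 1.94). Of the other endothelial and fibroblast markers, Myct1 read 34 and 108, whereas Cdh5 read 79 and 48, Kdr 144 and 136 and Col1a1 19 and 15, and Pecam1 had a value on the 0.5 M array alone, of 10. Over the 9 probes of that marker list the summed intensity was 692 at 0.3 M and 1351 at 0.5 M, and Cldn5 is its single member. Without Cldn5, which the rule chose for its ratio, the other 8 summed to 389 and 408. The part of endothelial RNA in this was not tested. Of 44 olfactory, vomeronasal and taste receptor probes in the band, 4 are members (9.09%), 6 were at least 2-fold lower and the median was -0.09. Olfr806 read 120 and 335 (1.78), Olfr955 142 and 274, Olfr157 141 and 238 and Olfr1344 152 and 250. Hair keratin-associated genes gave Krtap4-16 (221 and 462), Krtap3-3 (232 and 422) and Krtap5-2 (132 and 224). Genes of this family resemble each other and could share probes. In the fixed list of keratins and epidermal genes, 3 of 11 probes in the band are members (27.3%, against 6.09% of the band). Its median was 0.23, against 0.18 over all 2234 probes, and 8 of the 11 lay above 0. Krt13 (269 and 146, -0.58) and Lce1f (280 and 189, -0.27) read lower. Pancreatic and intestinal enzymes gave Pla2g1b (128 and 259), Pnliprp2 (111 and 211) and Alpi (125 and 255). Nxph4, a neurexin ligand of neurons, was bright at 1187 and 3095 (1.68), and the neuropeptide gene Cort read 133 and 299. Cpxm1 (254 and 587), Steap1 (281 and 544), Ovol2 (257 and 477), Ccdc65 (319 and 780) and Prrxl1 (155 and 269) were the others. The median ratio of these 18 was 1.98, against 1.91 for the cytoskeletal, 1.89 for the early secretory and 1.84 for the 11 leukocyte members. The rule chose all of them by this ratio, and these 18 had the lowest median intensity of the roles, 153.5 at 0.3 M. No ranking of roles is read from it.

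Among markers of other blood cells, Cd79b of the B cell receptor read 94 and 328, below the band at 0.3 M, while Cd22 read 225 and 126, Ms4a1 21 and 21 and Cd79a 15 and 11. Summed over these markers, 6 probes in all, the intensity was 381 at 0.3 M and 549 at 0.5 M, and 287 and 221 without Cd79b. Of the 6, only Cd22 lay in the band, so the others could not be members, and 0 are. The wider list of B cell genes had 2 probes in the band, of which Cd37 is a member and Cd22 is not. Summed intensity of 6 red cell and platelet probes was 17226 and 7983, and of 8 macrophage and dendritic cell probes 413 and 268, or 154 and 181 without Mrc1 (259 and 87). The 4 NK cell probes summed to 210 and 313, or 59 and 69 without Klra8, the 4 helper and regulatory T cell probes to 74 and 63 and the 6 neutrophil and mast cell probes to 85 and 61. In these 5 lists, 0 probes are members. Only the globin genes Hbb-bs and Hbb-bt and the NK gene Klra8 lay in the band, so the other probes could not be. Fewer vesicles of 1 origin and less RNA in each cannot be told apart in such samples.

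The remaining 42 members were 24 other named genes and 18 pseudogenes, noncoding RNAs and genes with predicted or RIKEN names. The named ones included Tmem134 (160 and 399, the largest ratio of them at 2.49), Eva1b (656 and 1347), Serf2 (2113 and 3848), the phosphatase scaffold Ppp2r1a (942 and 1663), the 14-3-3 gene Ywhaz (121 and 217), Tma7 (318 and 532) and the kinase gene Pask (244 and 404). The others of the 24 had ratios within the same range, from 1.64 upwards. The second group had ratios from 1.64 to 2.23 and included the bright noncoding gene 1700116B05Rik (1182 and 2414). Gapdh-ps15 resembles its parent gene, so its probe may bind that message.

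Other probes of the same genes were not used by the rule. Of the 136 genes, 13 had another probe on the table and 10 had one measured on both arrays. None of those 10 other probes (0 of 10) reached the ratio, 5 lay above 0 and 5 below, and their median centred difference was 0.01. The member probes of the same 10 genes had a median of 1.08, which the rule fixed. Ap4e1 differed most, with its other probe at 56 and 27 (-0.75). For Prrxl1 the other probe read 151 and 87 (-0.50), for Higd1a 126 and 94 (-0.12), for Plekha4 149 and 113 (-0.10) and for Dmxl2 54 and 42 (-0.06). For Mea1 it read 241 and 227 (0.21), and for Rnaset2b 94 and 123 (0.69), the highest of the 10. The other probes of Cotl1 (29 and 25), Use1 (13 and 13) and AI413582 (28 and 36) were dim. Nxph4 had a second probe that read 8 at 0.3 M and was empty at 0.5 M. Only the probes of Mea1 and Plekha4 lay in the intensity band, and the 2 arrays and their RNA are the same for every probe, so this is no replicate.

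**Figure D3:**
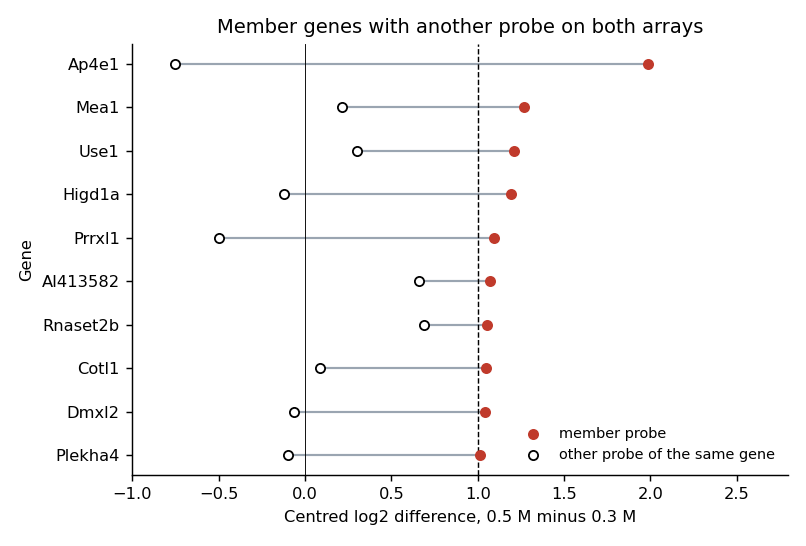
Centred log2 difference (x) of the member probe (red) and of the other probe of the same gene (open) for the 10 member genes with both, where the dashed line marks 2-fold. All 10 other probes lie to the left of that line, from -0.75 for Ap4e1 to 0.69 for Rnaset2b.

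Probe disagreement was also measured without regard to the members. Among all 2432 probes in the band, those of the families left out by the rule included, 20 genes had 2 probes. Their differences lay a median of 0.26 apart and more than 1 apart for 2 genes. The SD of a single probe from these pairs was 0.36, against an SD of 0.55 over the 2234 differences without those families, so the sets differ in part. The correlation between the 2 differences of a gene was 0.39 across these 20 genes, which are not independent replicates. The members, with a median of 1.16, were chosen as the upper edge of these 2234 differences.

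Scaling set how many members passed 2-fold. All 136 did after centring. With a pseudocount of 16 added to both intensities, 71 did (3.18% of the 2234 probes). With quantile normalization 57 did, and with a loess trend on level removed 57 did (2.55% for each). On the values as deposited it was 30 (1.34%). The balance of the band turned with the scaling. After centring, 144 of the 2234 probes were at least 2-fold higher at 0.5 M and 42 at least 2-fold lower. These counts were 71 and 58 with the pseudocount, 57 and 116 with quantile normalization, 57 and 117 with the loess trend removed and 30 and 157 as deposited. Members stayed above 0 under each of these 5 scalings, with medians from 0.86 as deposited to 1.16 after centring, which their choice largely fixes. Because the centring adds 0.30 to every difference, the medians of the lists of CD antigens (0.16), chaperones, cytoskeleton (0.25) and endosome and lysosome genes (0.27) lie below 0 on the values as deposited, as do single differences under 0.30. Of the roles, the genes known mainly from other tissues kept 13 of 18 past 2-fold with the loess trend removed and the mitochondrial and metabolic group 1 of 10. These were the extremes among 11 roles, which were assigned after the members were known. Removing the trend lowered dim members less than bright ones, and the genes known mainly from other tissues were the dimmest role.

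**Figure D4:**
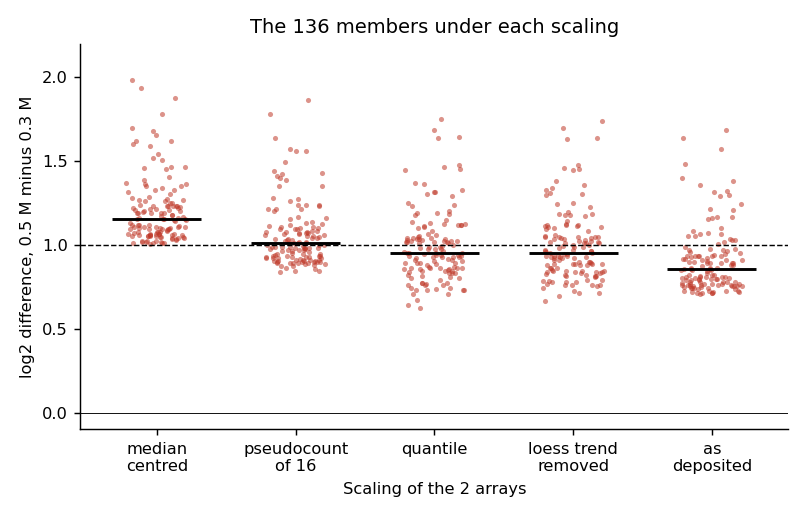
Log2 difference (y) of the 136 members under 5 scalings, 1 point for each member, with a bar at the median and a dashed line at 2-fold. The median lies between 0.86 and 1.16, and the number of points at or above the line goes from 136 after centring to 30 as deposited.

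Member genes were short. Gene span, from the first to the last base of the RefSeq gene, introns included, was not used by the rule and was known for 134 members. Its median was 5.87 kb, with quartiles of 1.95 and 19.1 kb, against 14.7 kb (6.38 and 33.9) for 2068 other genes with a probe in the band. Spans under 5 kb made up 47.8% of the members and 19.9% of the others. Among protein-coding genes alone, 121 of the members, the medians were 6.56 and 15.98 kb. Short members included Cd52, S100a6, Cldn5, Psenen and Crip1, while Chn2, Filip1l and Dmxl2 were among the longest. Pseudogenes were 7.35% of the members and 3.41% of the others.

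The share of members moved with level. In 4 classes of the 2234 probes of nearly equal size by mean level, members made up 2.33%, 5.56%, 6.99% and 9.48% from the dimmest to the brightest. The rule itself keeps members out of the dimmest corner, since a 0.3 M value at the lower bound needs a higher 0.5 M value. The median centred difference of all probes was 0.18, 0.11, 0.18 and 0.27 in the same order, with no steady rise. With the loess trend removed it was 0.0836, -0.0248, 0.0009 and 0.0034, highest in the dimmest class. The trend removed was thus larger in each brighter class. The share of members by level with that trend removed was not computed. Median spans of members against others were 17.3 against 16.1 kb in the dimmest class, which held 13 members, then 5.71 against 17.95, 6.19 against 15.3 and 4.26 against 10.52 kb. Members were thus the shorter group in the 3 brighter classes and not in the dimmest. The part of message length or of labelling in this was not tested.

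**Figure D5:**
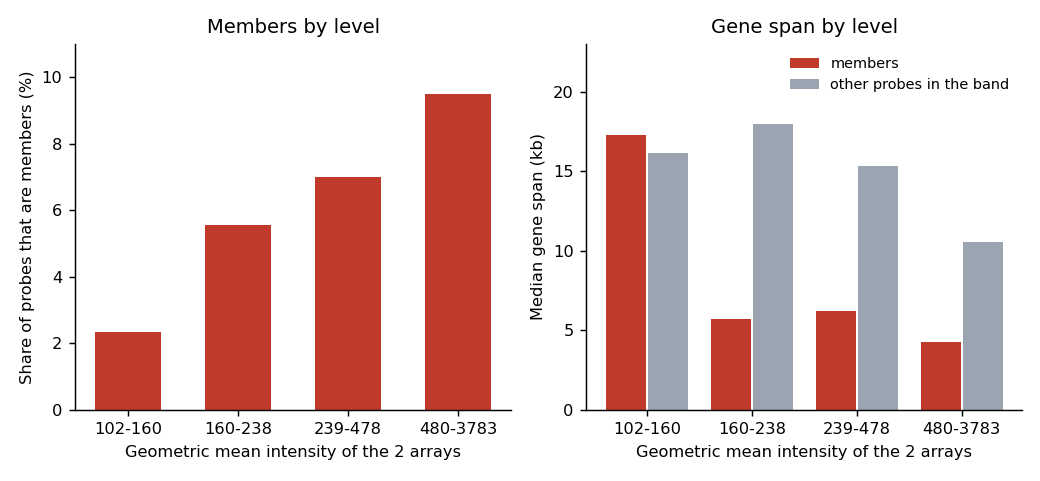
Left, share of probes that are members (%) in 4 classes of geometric mean intensity, and right, median gene span (kb) of members (red) and other probes in the band (grey) in the same classes. The share goes from 2.33% to 9.48%, and members have the shorter median span in all but the dimmest class.

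Promoter windows were compared as a description. Of the 136 genes, 104 had a window in the RefSeq table of GRCm38.p6, 250 bases before to 50 after the start. Its GC content had a median of 59.7% in the members, 60.3% in 1633 other genes of the band and 52.7% in all 27025 windows. GGGCGG on either strand was in 51.9% of the members, 63.5% of the others and 35.9% of all windows. CCGGAAG, the letters of an ETS site, was in 22.1%, 20.7% and 9.12%. CCAAT was in 43.3%, 39.6% and 37.9%, TATAAA in 12.5%, 8.27% and 14.2% and GCGCATG, part of an NRF1 site, in 7.69%, 7.47% and 4.04%. No motif lies within another on either strand. For GC content and each of the 5 motifs, members and other genes of the band thus lay on the same side of all windows, with no test made.

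By position, chromosome 7 held 21 members (15.4%, against 8.70% of the other genes), chromosome 17 held 16 (11.8% against 4.57%) and chromosome 3 held 11 (8.09% against 3.61%), the latter including S100a1, S100a6 and S100a11. These 3 chromosomes were named after the counts for 21 were seen. Few members were close neighbours. Pairs with at most 4 coding genes between them were Cd52 with Sh3bgrl3, Elob with Flywch2 and Sri with Steap1.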

How the data were processed

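The deposited table gives whole-number probe intensities on a linear scale, 1 column for each of 2 arrays. How the authors scanned, corrected for background and normalized, and when a cell was left empty, is "not given in the sources used here". Empty cells were left empty. Of 23473 probes, 20690 carried 1 gene symbol, 0 several and 2783 none in the array annotation. Symbols were updated through Entrez identifiers in a RefSeq table of GRCm38.p6 (134 members) or kept (2). Intensities were log2-transformed and centred on the median of probes measured on both arrays. Values and features were computed with Python 3.11.15, numpy 2.4.6 and pandas 2.3.3. The scalings other than the pseudocount were run on simulated data. Gene lists numbered 41. Members, lists and the naming rule (the largest and brightest members, up to 6 of a list, those with other probes, those at the edges) were chosen with earlier results of these data known, and further members are named so that each role is covered. Where a gene had several promoter windows, the first listed was used. Alternatives were no centring, quantile normalization, loess (span 0.3), a pseudocount of 16, other intensity bounds (50, 200, none above), a ratio of 2 and no family left out. With 1 array per fraction no test was run.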

Additional observations from a re-analysis of the deposited data

How the results depend on the processing

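The number of probes that qualified depended on the settings. The rule gave 136, which all exceed its threshold expressed as a centred difference (about 2-fold). With that same threshold on other scales it was 30 with no centring, 57 with quantile normalization, 56 with the loess trend removed and 69 with a pseudocount of 16. With no centring this is by construction a stricter cut, in effect a deposited ratio of 2, which also gave 30. For the other 3 scales the cause was not tested. A lower bound of 200 gave 86, again stricter by construction. It was 188 with a lower bound of 50, 166 with no upper bound and 157 with no family left out. The share of members past 2-fold was 100% after centring, 22.1% with no centring, 41.9% with quantile normalization, 41.9% with the loess trend removed and 52.2% with a pseudocount. The median difference of other probes of the member genes was near 0 and changed sign, from 0.0112 to -0.29 with no centring, -0.0133 with quantile normalization, -0.0169 with the loess trend removed, -0.0102 with a pseudocount and -0.10 over the 5 probes at 50 or more. The median gene span was 5.87 kb and went to 4.80 kb with a lower bound of 200, 5.27 kb with a ratio of 2 and 6.56 kb for protein-coding genes alone, 3 alternatives chosen after seeing the data. The median promoter GC content moved by under 10% in both alternatives. Protein length was planned and not run, since no protein table was used here. No paired analysis was possible because each fraction has 1 array and no test was made.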
